A study of Mus musculus with 6 samples.

Results

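Oncostatin M (Osm), leukaemia inhibitory factor (Lif), interleukin 6 (Il6), interleukin 4 (Il4), the macrophage growth factor gene Csf1, tumour necrosis factor (Tnf), transforming growth factor beta 1 (Tgfb1) and Il6st, the receptor chain gp130, were followed across 6 microarrays. These 8 genes were picked by name, with their values in NCOR1-LYN against control cells already known, and all 16 probe sets annotated to 1 of them and to no other gene were taken. They are 8 of the 18193 genes, and 16 of the 34945 probe sets, that carried a single gene symbol. Because that comparison was in view when the genes were picked, their values in it are a description and carry no test.

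The arrays held RNA from Ba/F3, a line of murine pro-B cells that depends on interleukin 3. The cells were transduced by a retroviral Tet-on system with NCOR1-LYN, a fusion of the nuclear corepressor NCOR1 and the SRC family tyrosine kinase LYN. There were 3 arrays of NCOR1-LYN cells, in which doxycycline had induced the fusion, and 3 of control cells, which were left uninduced. The labels speak of triplicate cultures and do not say whether the cells were 1 clone or whether the cultures were grown on separate days, so the p-values measure only a spread between arrays that may be technical. Doxycycline was given to the NCOR1-LYN cells and not to the control cells, so its own action and that of the fusion cannot be told apart. Induction of the fusion was not checked here. Values are probe set signals made by the authors on a linear scale, and the number of arrays limits their precision.

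Median signals were 54.8 to 61.9 per array, and 50.6 to 52.7% of probe sets lay below a signal of 64, which is used here as the mark of a dim probe set. Replicate 1 of both groups lay apart from the other arrays on the first principal component, at −24.9 with NCOR1-LYN and −37.2 in the control, against 12.0 to 18.6. The defining markers of the label pro-B were mostly dim: of 8 B lymphoid markers on the array, Cd79a, Ebf1, Vpreb1, Rag1 and Blnk stayed below 64 on every array, and Cd79b gave 412 to 461 with NCOR1-LYN and 403 to 577 in control cells. Pax5 gave 7.65 to 125 with NCOR1-LYN and 17.8 to 123 in control cells, and Igll1 13.9 to 179 with NCOR1-LYN and 53.8 to 70.8 in control cells. Ptprc, the gene of the pan-leukocyte antigen CD45, gave 8278 to 10434 with NCOR1-LYN and 9474 to 10078 in control cells.

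The IL-6 family of cytokines, to which oncostatin M, leukaemia inhibitory factor and interleukin 6 belong, signals through receptor complexes that share gp130. Each ligand brings gp130 together with its own partner chain, and JAK kinases bound to the complex then phosphorylate STAT proteins, STAT3 above all. Osm is itself a known target of STAT5, the factor that interleukin 3 activates, and Il6 is a textbook target of NF-kB, AP-1 and C/EBP factors. Interleukin 4 drives B cell class switching and type 2 immunity, CSF1 supports macrophages, TNF is a central inflammatory mediator, and TGF-beta 1 is a broadly acting restraint on growth that is secreted in a latent form.

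By the brightest probe set of each of the 8 genes, 3 had higher signals with NCOR1-LYN in all pairs of equal replicate number. The 3 were Osm, Il6 and Lif, with Lif almost level in the first pair. Of all genes tested, 15.9% were higher in all pairs. Osm was about 2.35-fold higher and changed alike in all pairs. Il6 and Lif differed less in the replicate 1 pair than in the other pairs, where both were more than 2-fold higher by these probe sets. The second Lif probe set was 0.96, 2.50 and 1.33 times the control in pairs 1, 2 and 3. Il6st stayed dim on every array. Tgfb1, Tnf, Csf1 and Il4 went both ways between the pairs.

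Osm gave signals of 1301, 1521 and 1541 in NCOR1-LYN replicates 1, 2 and 3, against 616, 644 and 597 in control replicates 1, 2 and 3. All 3 NCOR1-LYN arrays lay above all 3 control arrays, with a wide gap between the groups. The means were 1454 ± 133 with NCOR1-LYN and 619 ± 23.8 in control cells (SD, n = 3 each). On the scale of log2(signal + 64), used for all log2 values here, which understates the change of dim genes, the log2 fold change was 1.15 ± 0.13 (SE). Within pairs the NCOR1-LYN signal was 2.11, 2.36 and 2.58 times that of the control of the same number. Osm was represented by 1 probe set (1438767_at), so no second set could be compared.

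Lif, a neighbour of Osm on chromosome 11 with no other annotated protein-coding gene between them, gave 672, 935 and 986 in NCOR1-LYN replicates 1 to 3, against 671, 404 and 363 in control replicates 1 to 3. The groups did not overlap, but only because the lowest NCOR1-LYN array (672.2) stood just above the highest control array (670.8), both being replicate 1. The pairs differed by 0.00, 1.09 and 1.30 on the log2 scale. The dimmer second probe set of Lif (1450160_at) gave 121, 267 and 217 with NCOR1-LYN and 127, 107 and 163 in control cells, with pair differences of −0.04, 0.96 and 0.30. Both probe sets thus showed a level first pair and higher signals with NCOR1-LYN in the other pairs, while the size in the replicate 3 pair differed between them.

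Il6, which encodes a cytokine that supports B cell and plasma cell growth, gave 887, 6027 and 6286 in NCOR1-LYN replicates 1 to 3, against 657, 2125 and 2099 in control replicates 1 to 3. Replicate 1 was the lowest array of each group, and the groups overlapped because NCOR1-LYN replicate 1 lay below control replicates 2 and 3. Within pairs the NCOR1-LYN signal was 1.35, 2.84 and 2.99 times that of the control of the same number. The means were 4400 ± 3045 with NCOR1-LYN and 1627 ± 840 in control cells (SD, n = 3 each), so the spread within the NCOR1-LYN group exceeded the difference of the means. The log2 fold change was 1.14 ± 0.78 (SE), and 1.14 ± 0.22 when the replicate number was a block in the fit.

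**Figure D1:**
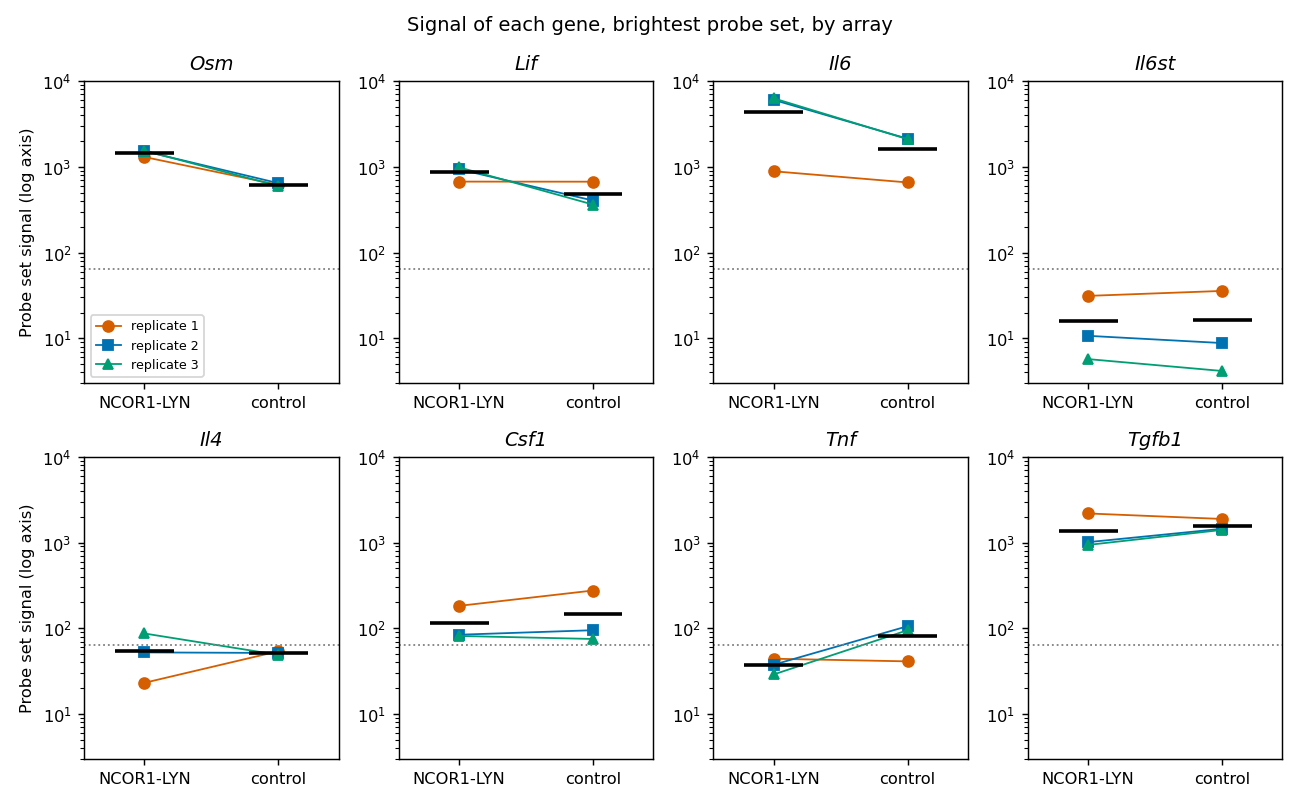
Probe set signal (log axis) of the brightest probe set of each of the 8 genes, with NCOR1-LYN arrays on the left and control arrays on the right of each panel. Lines join arrays of the same replicate number, black bars are group means (n = 3), and the dotted line marks a signal of 64. Osm was higher with NCOR1-LYN along all 3 lines, Il6 had its replicate 1 arrays (887 and 657) far below the others, and Il6st lay under the dotted line throughout.

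The stretches before the starts of Il6 and Lif are shown because these genes changed alike in the pairs, with a small difference in replicate 1 and larger ones in replicates 2 and 3. The 250 bases before each annotated start, from RefSeq's GRCm38.p6 annotation, were searched on both strands for 5 motifs, namely TTCNNNGAA (STAT), TGANTCA (AP-1), GGNNTTNCC (NF-kB), TTNNGNAAT (C/EBP) and ACGTCA (a part of the cyclic AMP response element). Capitals mark the matches, none of which overlap, and the motifs were chosen with the values of the genes known. The Il6 stretch is chr5:30012864-30013113 on the plus strand and the Lif stretch chr11:4257318-4257567 on the plus strand.
Il6: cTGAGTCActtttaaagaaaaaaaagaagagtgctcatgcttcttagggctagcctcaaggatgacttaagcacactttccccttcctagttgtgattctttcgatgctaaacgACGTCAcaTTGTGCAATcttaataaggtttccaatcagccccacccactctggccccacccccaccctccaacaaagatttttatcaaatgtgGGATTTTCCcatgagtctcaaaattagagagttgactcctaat
Lif: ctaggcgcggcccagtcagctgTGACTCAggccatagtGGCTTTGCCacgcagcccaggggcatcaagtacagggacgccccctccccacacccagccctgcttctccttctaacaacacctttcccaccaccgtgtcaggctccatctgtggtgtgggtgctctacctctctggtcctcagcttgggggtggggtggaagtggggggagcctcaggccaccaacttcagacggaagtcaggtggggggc

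The Il6 window held the AP-1 letters at 249 to 243 bases before the start, the cyclic AMP element letters at 136 to 131, the C/EBP letters at 128 to 120 and the NF-kB letters at 43 to 35. The Lif window held the AP-1 letters at 228 to 222 bases before the start and the NF-kB letters at 212 to 204, and the letters of the other 3 motifs were not found there. Over the 32851 windows of this kind in the genome, 6.75% held the AP-1 letters, 13.5% the NF-kB letters, 10.2% the C/EBP letters, 6.47% the cyclic AMP element letters and 7.02% the STAT letters. Windows were at hand for 7 of the 8 genes, Osm not being among them, and 0 of the 7 genes had the STAT letters. Csf1 held the NF-kB letters at 154 to 146 bases before its start. The NF-kB letters were loosened after the first matches had been seen: a stricter form with 1 more G in front was held by Il6 and Csf1 and not by Lif, and by 4.11% of all windows. A match is only a run of letters in these windows, and their absence says nothing of a factor's binding elsewhere.

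Il6st, whose product gp130 is the chain that oncostatin M, leukaemia inhibitory factor and interleukin 6 all signal through, was dim in all of its 4 probe sets. Signals over these sets were 2.95 to 31.3 with NCOR1-LYN and 4.05 to 35.7 in control cells. The brightest of them (1421239_at) gave 31.3, 10.7 and 5.73 in NCOR1-LYN replicates 1 to 3, against 35.7, 8.81 and 4.17 in control replicates 1 to 3, so the groups overlapped. Il6st was the 1 gene of the 8 that failed the filter on dim genes, a mean signal of about 47, and no fold change is drawn from it. A low microarray signal is not a measure of absence.

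Tgfb1 was well above the dim range. Its brighter probe set (1420653_at) gave 2180, 1010 and 938 in NCOR1-LYN replicates 1 to 3, against 1881, 1445 and 1403 in control replicates 1 to 3. NCOR1-LYN was the higher of the pair in replicate 1 and the lower in replicates 2 and 3, with pair differences of 0.21, −0.49 and −0.55 on the log2 scale. The second probe set (1445360_at) gave 241, 73.2 and 96.6 with NCOR1-LYN and 211, 120 and 112 in control cells, with the same signs in the pairs (0.15, −0.42 and −0.13). In both probe sets replicate 1 was the highest array of each group.

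Tnf was near the dim mark, with 44.2, 37.6 and 29.0 in NCOR1-LYN replicates 1 to 3, against 41.1, 106 and 95.0 in control replicates 1 to 3. Only control replicates 2 and 3 exceeded 64, and the groups overlapped through replicate 1. All NCOR1-LYN arrays lay below the filter level of about 47, so Tnf passed the filter only through control replicates 2 and 3. The log2 fold change was −0.49 ± 0.21 (SE), with pair differences of 0.04, −0.74 and −0.77. These values are a description and no test is drawn from them.

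Csf1 had 4 probe sets, of which 3 had a mean above the filter level. The brightest (1460220_a_at) gave 183, 84.1 and 81.4 in NCOR1-LYN replicates 1 to 3, against 276, 95.0 and 75.0 in control replicates 1 to 3, and replicate 1 was again apart from the others. The other 3 probe sets lay between 6.73 and 91.0 with NCOR1-LYN and between 5.03 and 141 in control cells. Their pair differences, from −0.69 to 0.53, disagreed in sign between the sets. Il4 gave 23.1, 52.3 and 87.0 with NCOR1-LYN, against 54.0, 51.6 and 49.0 in control cells, and exceeded 64 on 1 of 6 arrays.

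**Figure D2:**
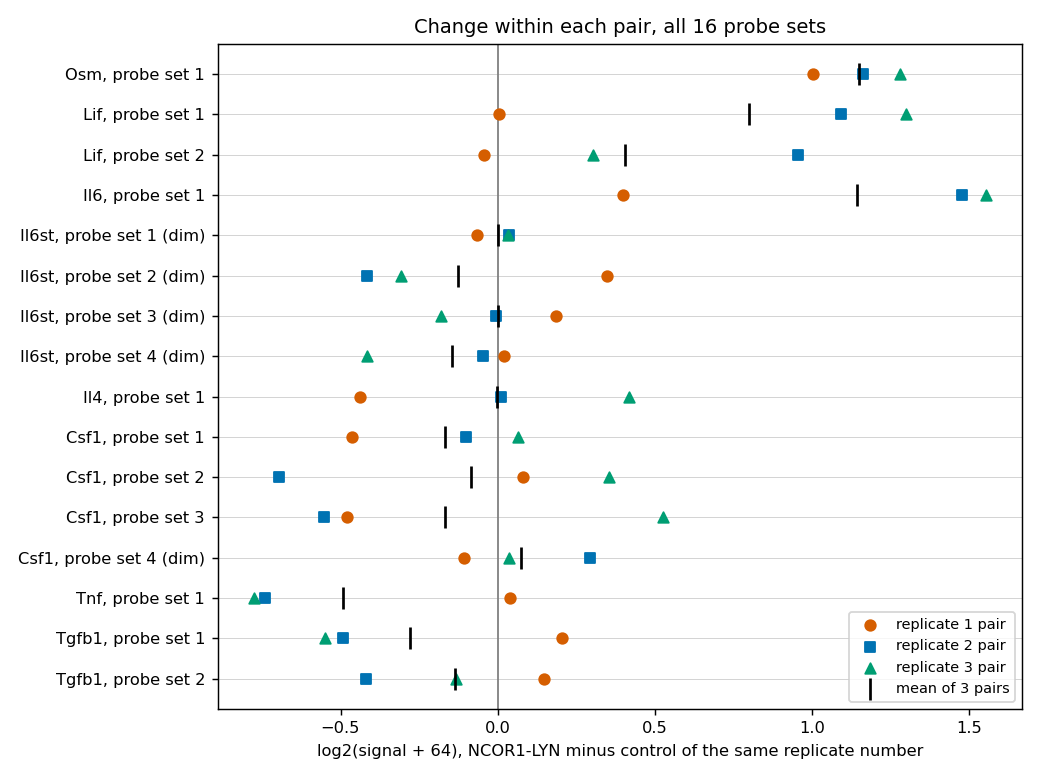
Difference in log2(signal + 64), NCOR1-LYN minus control of the same replicate number, for all 16 probe sets, ordered by brightness within each gene. Symbols are the 3 pairs, black ticks their means, and "dim" marks probe sets below the filter level. The 3 Osm points lie together around their mean of 1.15, whereas the Lif and Il6 points of the replicate 1 pair (0.00 and 0.40) lie left of the other pairs.

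In the fit of limma over all 10916 genes tested, 1 of the 7 genes that passed the filter was past an adjusted p of 0.05, Osm, beside 0.0824% of all genes in either direction and 0.055% as higher. With the replicate number as a block it was again Osm alone, beside 0.824% of all genes, 0.266% as higher and 0.559% as lower. The groups did not overlap for 2 of the 7, Osm and Lif, both higher with NCOR1-LYN, beside 11.2% of all genes in either direction and 5.18% in this one. Signals were higher with NCOR1-LYN in all pairs for 3 of the 7, beside 15.9% of all genes. When replicate 1 of both groups was left out, which kept 2 arrays per group, 4 of the 7 were past the threshold, Osm, Lif and Il6 as higher and Tgfb1 as lower, beside 6.82% of all genes, 3.18% as higher and 3.64% as lower. In the replicate 1 pair left out, Tgfb1 was higher with NCOR1-LYN (0.21) and Lif level (0.00). Without 1 array at a time, Osm was past the threshold only in the fit that left out NCOR1-LYN replicate 1, that is in 1 of 6. Since the genes were picked with this comparison known, nothing is read from these counts. The median log2 fold change was 0.00 over the 7 genes and −0.01 over all genes tested.

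The second question was which of the genes varied with the replicate number that both groups share, a term that the choice of genes did not use. limma's F test of the replicate number, in a fit with the group, passed for Il6 (adjusted p = 0.00961) and Csf1 (adjusted p = 0.0303), that is for 2 of the 7 genes, beside 13.1% of all genes tested. Relative to the mean of replicates 2 and 3 on the log2 scale, Il6 in replicate 1 stood at −2.71 with NCOR1-LYN and −1.59 in control cells, the widest distances among the 7 genes in either group. Csf1 in replicate 1 stood at 0.75 with NCOR1-LYN and 1.19 in control cells by its brightest probe set. Its other probe sets above the filter level disagreed. With NCOR1-LYN and in control cells, 1448914_a_at stood at 0.58 and 1.05, and 1425154_a_at at −0.09 and −0.34. Over 6 alternative settings Il6 passed in all, with adjusted p from 0.00845 to 0.0312. Csf1 was tested in 5 of these settings and passed in 2, so its call depends on the setting. Tgfb1 in replicate 1 stood at 1.11 with NCOR1-LYN and 0.39 in control cells (adjusted p = 0.0617). Lif in replicate 1 stood at −0.48 with NCOR1-LYN and 0.72 in control cells, opposite ways in the groups, and Osm at −0.23 with NCOR1-LYN and −0.01 in control cells (adjusted p = 0.948 for Lif and 0.757 for Osm).

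**Figure D3:**
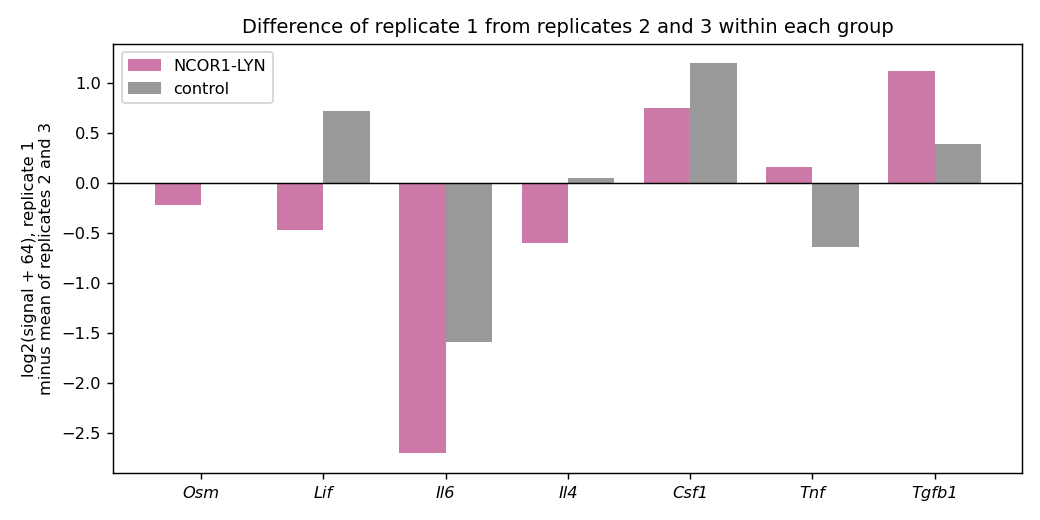
Log2(signal + 64) of replicate 1 minus the mean of replicates 2 and 3, within NCOR1-LYN (left bar) and control (right bar), for the 7 genes that passed the filter, brightest probe set, 1 value per bar and so no error bar. Il6 lies at −2.71 and −1.59, Csf1 and Tgfb1 lie above 0 in both groups, and Osm stays near 0.

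Genes whose signals ran most like those of Osm over the 6 arrays were Bhlhe40 (Pearson r = 0.997), a repressor of transcription, Phka2 (0.992), a subunit of phosphorylase kinase, the chemokine gene Ccl9 (0.987), Plxdc1 (0.985) and Rnf10 (0.985). Bhlhe40 gave 5220, 6296 and 6290 with NCOR1-LYN, against 3186, 3112 and 3054 in control cells. Most like Lif were D2hgdh (0.987), Pik3c2g (0.985), Cep85 (0.985), the transferrin receptor gene Tfr2 (0.981) and Sla (0.980), which encodes an adaptor protein. Sla gave 1959, 2675 and 3101 with NCOR1-LYN, against 1157, 319 and 242 in control cells. These values describe likeness over 6 arrays that fall into the same groups and replicates, and each set of 5 is the top of 10916 genes.

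On either side of the Osm and Lif pair the next 3 annotated protein-coding genes were tested too. Of these 6 genes, 0 passed without or with the block, beside 0.0824% of all genes without it and 0.824% with it. The nearest were Castor1, which encodes an arginine sensor, with pair differences of 0.27, 1.03 and 1.02, and Hormad2 with −0.23, 1.10 and 0.59. Beside Tnf, the lymphotoxin gene Ltb had pair differences of −0.88, −0.36 and −0.07, and Lta was below the filter. Beside Il4, the cytokine genes Il13 and Il5 were below the filter as well.

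Other genes of these pathways were taken from 5 lists, made with earlier results of these data known but not picked for how they moved. Of their 64 genes tested, 0 passed the threshold in limma without the block, beside 0.0824% of all genes, and 8 had an unadjusted p under 0.05, beside 4.75% of all genes. With the block 3 passed, beside 0.824% of all genes, and 16 had an unadjusted p under 0.05, beside 11.3% of all genes. The 3 are Ebi3, Cish and Furin, given with adjusted p from that fit.

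Of the IL-6 family list, 11 of 16 genes were on the array and 6 passed the filter, while Il11, Il31, Lifr, Cntfr and Il31ra stayed below 64 on all arrays. Among the partner chains, Osmr, which pairs with gp130 for oncostatin M, gave 32.7 to 91.3 with NCOR1-LYN and 24.5 to 80.4 in control cells. Il6ra, the chain that binds interleukin 6, gave 119 to 148 with NCOR1-LYN and 102 to 161 in control cells. Lifr, which binds leukaemia inhibitory factor beside gp130, gave 11.5 to 22.9 with NCOR1-LYN and 2.63 to 17.2 in control cells. The signals of the receptor genes thus overlapped between the groups. Ebi3, a secreted subunit of interleukin 27, gave 676, 686 and 761 in NCOR1-LYN replicates 1 to 3, against 1175, 1226 and 1222 in control replicates 1 to 3, without overlap. It fell with the block in limma (log2 fold change −0.72 ± 0.10, SE, adjusted p = 0.0336, lower in 3 of 3 pairs), and had an adjusted p of 0.17 without it. It was also the 1 gene of the 6 that passed without replicate 1 of both groups, beside 6.82% of all genes. Il27ra had a log2 fold change of 0.21 ± 0.24 (SE). The list's median was 0.09, beside −0.01 over all genes.

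Of the list of JAK-STAT transducers and inhibitors, 23 of 24 genes were tested, with a median log2 fold change of 0.07. Cish, a STAT5 target that dampens cytokine receptors, gave 2536, 4276 and 3931 with NCOR1-LYN, against 786, 1910 and 2104 in control cells. Its groups did not overlap, and it rose with the block in limma (1.21 ± 0.15, SE, adjusted p = 0.0221), not without it (0.718). Replicate 1 was the lowest array of both groups for Cish, as it was for Il6. Socs1, a feedback inhibitor of JAK kinases, had 0.60 ± 0.30 (SE) and Socs3, the inhibitor that STAT3 induces and that binds gp130, −0.05 ± 0.26. Stat3 gave 2510, 2155 and 2018 with NCOR1-LYN, against 2164, 1536 and 1359 in control cells, and did not pass. Without replicate 1 of both groups, 6 of the 23 passed, Cish, Jak2, Stat3, Grb2 and Ptpn6 as higher and Socs5 as lower, beside 6.82% of all genes. This fit kept 2 arrays per group. In the replicate 1 pair left out, Jak2 (−0.31), Grb2 (−0.12) and Ptpn6 (−0.10) were lower with NCOR1-LYN. Cish, Stat3 and Socs5 went the same way there as in the other pairs.

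Of the list of STAT3 and IL-6 response genes, 11 of 18 were tested, 0 passed without or with the block, and the median log2 fold change was 0.03. At an unadjusted p of 0.05 in limma, 0 of the 11 passed without the block, beside 4.75% of all genes, and 3 with it, beside 11.3%. Without replicate 1 of both groups 1 of the 11 fell past the threshold, beside 3.64% of all genes as lower and 6.82% in either direction, the survival gene Mcl1 (−0.27 ± 0.06, SE, 2 arrays per group). Lcn2, which encodes the iron-binding lipocalin 2, gave 1457 in NCOR1-LYN replicate 1 against 56.3 and 39.0 in the other NCOR1-LYN arrays and 49.8 to 56.8 in control cells, so its log2 fold change of 1.17 ± 0.94 (SE) came from 1 array. Fos, an AP-1 subunit, gave 623, 252 and 182 with NCOR1-LYN, against 759, 349 and 303 in control cells, with pair differences of −0.26, −0.38 and −0.58. The liver acute phase genes Hp and Fgg were below 64 on all arrays.

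Of the receptors and activators of interleukin 4, CSF1, TNF and TGF-beta, 14 of 21 were tested, with a median log2 fold change of −0.07. Furin, the protease that cleaves the TGF-beta 1 precursor, gave 1857, 1668 and 1364 in NCOR1-LYN replicates 1 to 3, against 2859, 2481 and 2394 in control replicates 1 to 3. Its groups did not overlap, and it fell with the block in limma (−0.65 ± 0.10, SE, adjusted p = 0.0419), not without it (0.426). Adam17, the protease that releases TNF from the cell surface, gave 1603, 1985 and 2269 with NCOR1-LYN, against 1212, 1395 and 1234 in control cells, and did not pass (0.57 ± 0.12, SE, adjusted p = 0.11 with the block). The TNF receptor gene Tnfrsf1a gave 762 to 1278 with NCOR1-LYN and 913 to 1477 in control cells, and Tgfbr1 gave 1588 to 1996 with NCOR1-LYN and 1747 to 2300 in control cells, both overlapping. Without replicate 1, 3 of the 14 passed, Adam17 and Il4ra as higher and Furin as lower, beside 6.82% of all genes. In the replicate 1 pair left out, Il4ra was lower with NCOR1-LYN (−0.30), while Adam17 and Furin kept their directions.

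Of 40 other secreted cytokines, 36 were on the array and 24 of these stayed below 64 on every array, among them Il2, Il3, Il5, Il10, Il13, Csf2, Csf3 and Ifng. The 10 that passed the filter had a median log2 fold change of −0.07, and 0 passed the threshold without or with the block, with 4 of the 10 at an unadjusted p of 0.05 in limma either way, beside 4.75% of all genes without the block and 11.3% with it. Tnfsf14, a TNF family ligand also known as LIGHT, gave 163, 482 and 446 with NCOR1-LYN, against 494, 760 and 766 in control cells (log2 fold change −0.86 ± 0.16, SE, adjusted p = 0.0831 with the block). Vegfa, the angiogenic growth factor gene, gave 918, 870 and 789 with NCOR1-LYN, against 664, 522 and 550 in control cells (0.53 ± 0.11, SE, adjusted p = 0.113 with the block). Neither passed. The groups of both did not overlap, nor did those of Ltb and Tnfsf13b, which were lower with NCOR1-LYN. Over all genes tested 11.2% did not overlap in either direction. Without replicate 1, 4 of the 10 passed, Il16 and Vegfa as higher and Tnfsf13b and Tnfsf14 as lower, beside 6.82% of all genes. In the replicate 1 pair left out, Il16 was lower with NCOR1-LYN (−0.16), while Vegfa, Tnfsf13b and Tnfsf14 kept their directions.

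**Figure D4:**
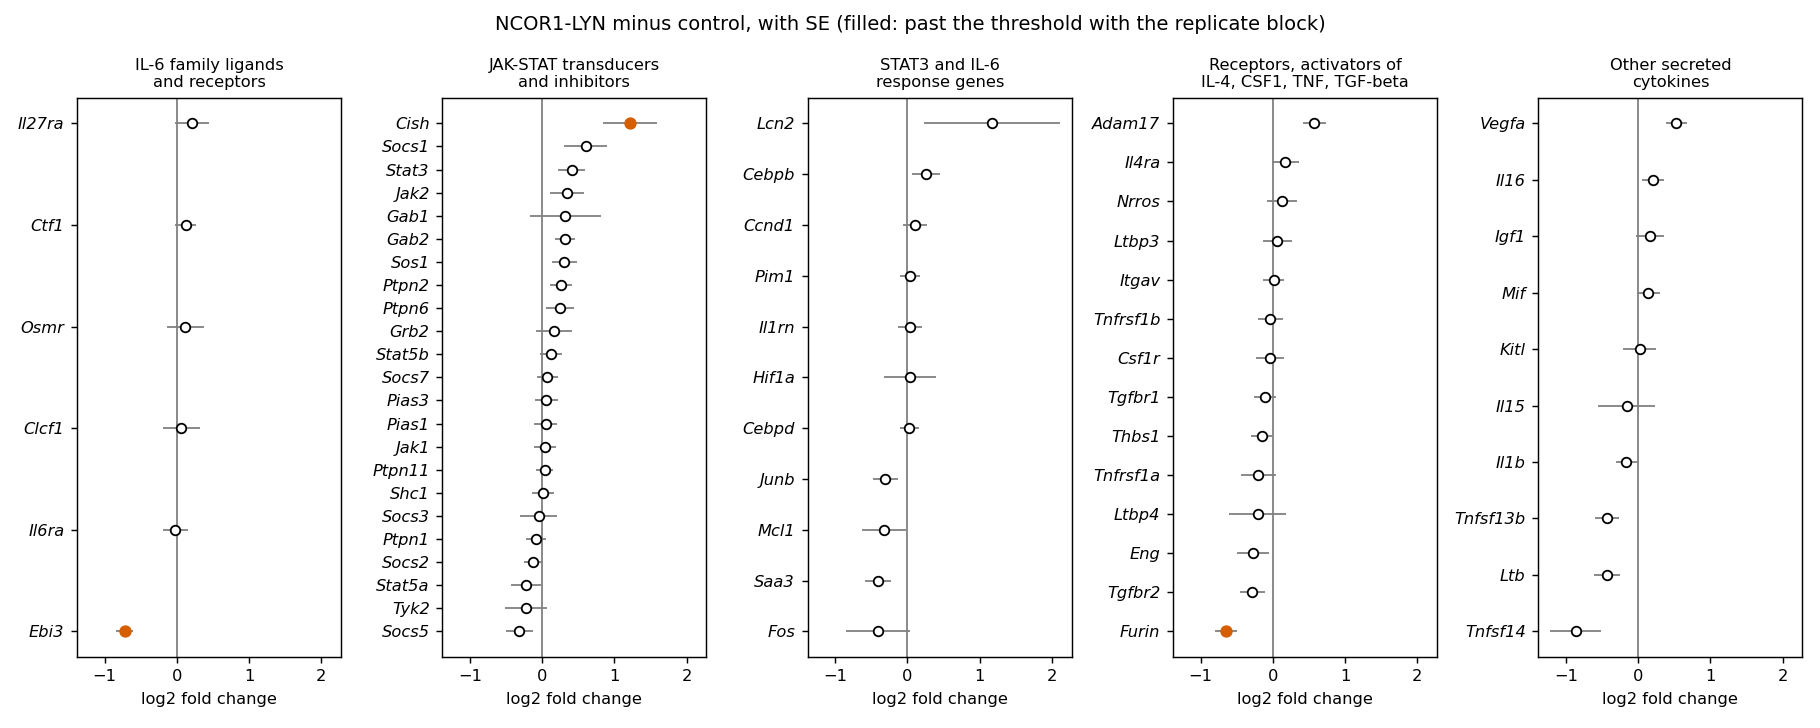
Log2 fold change, NCOR1-LYN minus control, with SE of the fit without the block, for the genes of the 5 lists that passed the filter. Filled points (Cish at 1.21, Furin at −0.65 and Ebi3 at −0.72) were past an adjusted p of 0.05 with the replicate block, and 0 points were past it without the block.

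Some markers of other blood cells that make these cytokines differed between the groups, in both directions. In limma without the block, 0 of the 3 mast cell and 4 macrophage and monocyte markers tested passed the threshold, beside 0.0824% of all genes. At an unadjusted p of 0.05 3 of them passed, beside 4.75% of all genes. With the block 1 mast cell marker passed the threshold, beside 0.824% of all genes. In that fit 2 markers of each list had an unadjusted p under 0.05, beside 11.3% of all genes. Of 6 mast cell markers on the array 3 passed the filter. The summed signals of all 6 were 1893 to 4585 with NCOR1-LYN and 721 to 1836 in control cells. Most of the NCOR1-LYN sums was Fcer1a, a chain of the IgE receptor. It gave 1596, 4386 and 3721 with NCOR1-LYN and 975, 388 and 341 in control cells. The protease genes Mcpt4 and Tpsb2 stayed below 64 on all arrays. Cma1, the gene of mast cell chymase, gave 80.5, 5.74 and 52.4 with NCOR1-LYN, against 615, 190 and 186 in control cells. It was past the threshold as lower with the block in limma (log2 fold change −1.73 ± 0.23, SE, adjusted p = 0.0281), not without it (0.534). NCOR1-LYN replicates 2 and 3 lay below 64, and Cma1 passed the filter on dim genes only through its control arrays. Its values are therefore a description and no test is drawn from them. The 6 macrophage and monocyte markers summed to 780 to 2191 with NCOR1-LYN and 2307 to 2440 in control cells, and Cd14 and Marco stayed below 64. Ccr2 gave 164, 888 and 591 with NCOR1-LYN, against 1307, 1008 and 931 in control cells. Cd68 gave 83.2, 181 and 149 with NCOR1-LYN, against 206, 290 and 260 in control cells. Both were lower without overlap, beside 11.2% of all genes without overlap in either direction. Adgre1 (375, 955 and 992 against 573, 1012 and 955) and Csf1r (151, 152 and 115 against 188, 103 and 151) overlapped. The part of the mast cell and macrophage markers in the cytokine signals was not tested. In RNA from whole cultures, fewer cells of a kind and less RNA per cell cannot be told apart.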

How the data were processed

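RNA of 6 cultures was hybridised to 1 Affymetrix array each, 3 with NCOR1-LYN and 3 control, with groups and replicate numbers from the sample titles. The deposited intensities are linear probe set signals. The authors used MAS5 according to the submitters' processing notes, its version being not given in the sources used here. By the values, the mean of each array without the lowest and highest 2% of probe sets had been set to 500. MAS5 leaves dim signals noisy, and no detection calls were used.

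Signals were used as log2(signal + 64). Of 45101 probe sets, 64 were controls, 932 had several symbols and 9160 none. Each gene was represented by its brightest probe set, and the dimmest 40% of genes were left out. limma 3.58.1 in R 4.3.3 (lmFit, eBayes with trend, Benjamini-Hochberg over 10916 genes, two-sided) gave all adjusted p, with 4 residual degrees of freedom, or 2 with the block. The fits were tested on simulated data.

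Across genes, deviations from group means correlated at 0.62, 0.41 and 0.44 between arrays of equal replicate number, above 0.1 in every pair, so these were treated as pairs, although the labels name no shared day. Replicate 1 stood apart in both groups, which by itself gives replicates 2 and 3 of both groups deviations of like sign. The correlations therefore cannot show whether replicates 2 and 3 are rightly paired. Values of these pairs and of the block rest on the shared numbers in the labels.

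The 8 genes and the lists were chosen with earlier results of these data known. Named were the 8 genes, from each list the genes past the threshold without or with the block and the 2 largest changes, and the 5 genes most like Osm or Lif. Others were chosen after their values were seen. Symbols of the 8 genes matched GRCm38.p6 gene names, and the arrays have no genome build.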

Additional observations from a re-analysis of the deposited data

How the results depend on the processing

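Alternatives were a smaller and a larger offset, no filter, a filter at the 60th percentile, quantile normalization, the mean of a gene's probe sets, the replicate block, and left-out arrays. Against 9 genes past the threshold in limma, 1 passed without the filter, 1 with the stricter filter, 90 with the replicate block and 744 without replicate 1 of both groups, and 0 to 15 passed when 1 array was left out (0 without NCOR1-LYN replicate 2 or 3 or control replicate 2 or 3, with 345 to 408 genes at an unadjusted p of 0.05, and 15 without control replicate 1). Osm passed in 5 of the 14 alternatives, and in 1 of the 6 that leave out 1 array. The replicate number passed in 1425 genes, and in 600 without the filter, where more genes were tested. With the replicate block the counts were 1 in the IL-6 family list, 1 in the JAK-STAT list and 1 in the list of receptors and activators, all 0 without it, and the block changed no count of the other lists. Without replicate 1 of both groups they were 1, 6 and 3, and 1 of the STAT3 list and 4 of the other cytokines passed, with 2 close arrays per group. The log2 fold change kept its sign in all 14 alternatives for Osm (0.96 to 1.22), Lif (0.60 to 1.20), Il6 (0.61 to 2.05), Tnf (−0.80 to −0.20) and Tgfb1 (−0.65 to −0.07). The filter settings and the replicate block could not move it, nor could the mean of probe sets for genes with 1 probe set. For those settings the kept sign was fixed in advance. Within the replicate 1 pair alone, Tnf (0.04) and Tgfb1 (0.21) went the other way. The log2 fold change of Csf1 ran from −0.42 to 0.23, the latter without control replicate 1, and that of Il4 from −0.20 to 0.21. Il6 had 2.05 without NCOR1-LYN replicate 1. The causes were not tested.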

Other observations

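Beyond the B lymphoid, mast cell and macrophage markers, the arrays held few markers of other lineages. Of 5 T and NK cell markers on the array, Cd3e, Cd3g, Cd4 and Ncr1 stayed below a signal of 64 on all 6 arrays, and of 6 fibroblast markers Col1a1, Col3a1, Dcn, Pdgfra and Lum did. Of the early haematopoietic markers Kit and Cd34 stayed below 64 as well, while Spn, the gene of the leukocyte sialoglycoprotein CD43, gave 2790 to 3896 with NCOR1-LYN and 2569 to 3310 in control cells. Il3ra, the chain that binds interleukin 3, gave 442 to 727 with NCOR1-LYN and 403 to 720 in control cells, with its highest array of each group in replicate 1. Csf2rb, of the same list, gave 13827, 20743 and 25885 with NCOR1-LYN, against 22251, 12964 and 12267 in control cells. Its groups overlapped, with pair differences of −0.68, 0.68 and 1.07.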
